A study of Homo sapiens with 4 samples.

Results

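To examine how the genes of the proteasome were covered by N6-methyladenosine (m6A), the proteasome subunit genes were looked up in the peak lists of an m6A meRIP-seq experiment in OE-19 cells, an established line of adenocarcinoma of the esophagogastric junction. The members were the 48 protein-coding genes, of 20046 in GENCODE version 44, whose symbol is PSMA, PSMB, PSMC, PSMD, PSME, PSMF or PSMG followed by digits alone. In meRIP-seq an antibody enriches m6A-bearing RNA fragments before sequencing, and a peak is a place where the enriched fragments exceed the local background. Of the 4 samples, all of unperturbed OE-19 cells grown in RPMI1640 with serum, 2 were replicates of the m6A immunoprecipitation (IP) and 2 were input RNA taken without antibody. No treatment, genotype or time point separated them, all came from 1 cell line, and no peak list of the input was analysed here. The labels do not say whether the replicates were separate cultures, so the spread between them may be technical.

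The proteasome is the large protease that breaks down proteins tagged with ubiquitin. Its barrel-shaped 20S core is built of alpha rings, encoded by PSMA genes, and of beta rings that carry the proteolytic sites, encoded by PSMB genes. The 19S particle caps the core, and its PSMC ATPases unfold the substrate while its PSMD subunits include scaffolds, ubiquitin receptors and a deubiquitinase. Other members open the core from outside (PSME), inhibit it (PSMF1) or help to assemble it (PSMG). The mark m6A is written on nascent mRNA by a methyltransferase complex, is known to be common around stop codons and in long exons, and is kept away from splice junctions by the exon junction complex. Its usual core motifs are GGAC and the related GAAC, AGAC and AAAC, in which the A before the final C is methylated.

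The list of replicate 1 held 24607 peaks, of which 18488 had their summit in an exon of a protein-coding gene, and that of replicate 2 held 19318, of which 12003 did. The lists hold no read numbers, so the depth behind each value is unknown, and a gene without a peak may be unmodified, weakly expressed or too shallowly covered, which cannot be told apart here. KRT8, KRT18, EPCAM and ERBB2, looked up as genes known from epithelial adenocarcinoma cells, had no exonic peak in either replicate, and the lists do not measure expression, so the label of the line was not checked by them.

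Most proteasome subunit genes had no m6A peak. A gene was counted where a summit lay in an exon of any of its transcripts. In replicate 1, 10 of 48 members (20.8%) had such a peak, against a background of 42.4% of all protein-coding genes. In replicate 2, 6 members (12.5%) had one against 34.1% of all protein-coding genes. The same 6 members had a peak in both replicates, where the background was 33.4%. These were PSMD5 and PSMD11 of the 19S group, PSME4, PSMF1, PSMG2 and PSMG3. A further 4 members, PSMC3, PSMD13, PSME3 and PSMG4, had a peak in replicate 1 alone, none had one in replicate 2 alone, and 38 had none.

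The share was also set beside genes of like size, since longer genes more often hold a peak. Among the 200 protein-coding genes nearest to each member in exonic length, on average 42.2% had a peak in replicate 1, 33.4% in replicate 2 and 32.7% in both, which corresponds to 20.3, 16 and 15.7 of 48 genes. The members were thus counted at 10, 6 and 6 where genes of their length gave these numbers. No test was run on this difference, since the lists form 1 group of 2. The genes were also chosen with results of these lists known. Among all genes cut into 5 classes of equal number by exonic length, the share with a peak in both rose from 11.4% in the shortest class to 48.9% in the longest. The members counted 1 of 12 in the shortest class, 0 of 11 and 1 of 9 in the following ones, 1 of 7 in the fourth and 3 of 9 in the longest. The members stood below the share of all genes in every class.

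**Figure D1:**
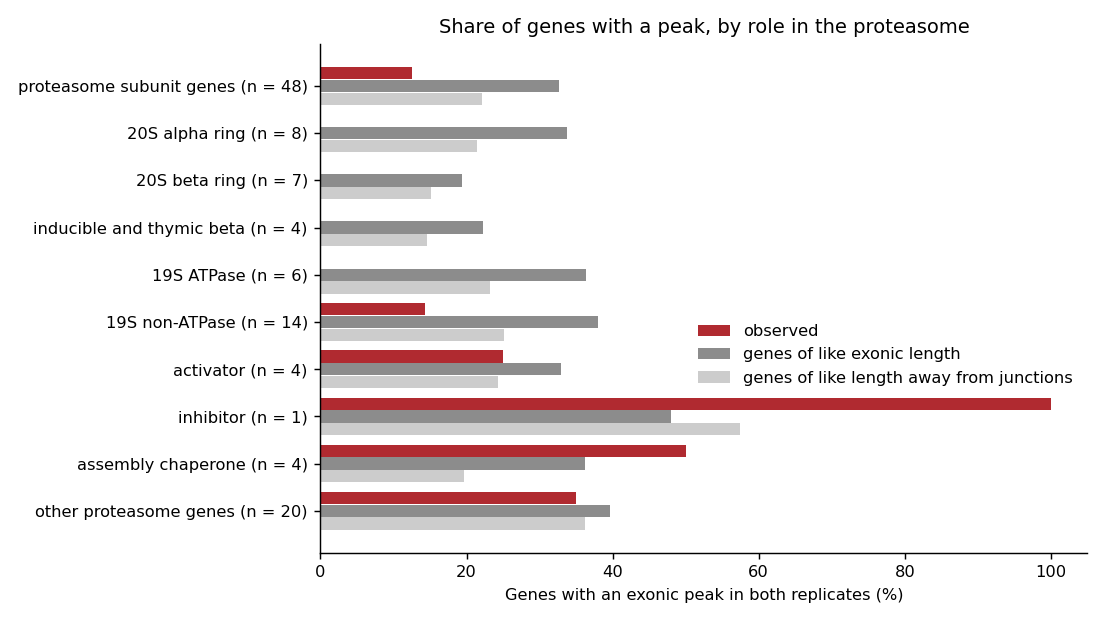
Percentage of genes with an exonic m6A peak in both replicates (horizontal axis) in each group of proteasome genes (n is its number of genes), beside genes of like exonic length and genes of like length away from exon junctions. The 20S groups and the 19S ATPases have no bar because they stand at 0%, and all 48 members stand at 12.5%. The assembly chaperones (50%, 2 of 4 genes) and the 1 inhibitor gene stand above genes of like exonic length (36.3% and 48%). Of these, PSMG2 and PSMF1 rest on summits that cannot be given to the member with certainty.

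None of the genes of the 20S core had an exonic peak. All 8 alpha ring genes, the 7 constitutive beta ring genes PSMB1 to PSMB7 and the 4 inducible and thymic beta genes PSMB8 to PSMB11 were at 0 in both replicates, so that 0 of 19 were counted where genes of like exonic length gave 6.63 in replicate 1 and 4.96 in both. They include PSMB5, PSMB6 and PSMB7, which carry the proteolytic sites, and PSMB8, PSMB9 and PSMB10, which replace them in the immunoproteasome. PSMA8, an alpha subunit of the testis, and PSMB11, a beta subunit of the thymus, are in this count as well, and leaving them out left the number of members with a peak in both at 6.

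The 19S genes had few peaks. Of the 6 ATPase genes, 0 had a peak in both replicates where genes of like length gave 2.18, and PSMC3 had one in replicate 1. Of the 14 non-ATPase genes, PSMD5 and PSMD11 had a peak in both and PSMD13 in replicate 1 alone, where genes of like length gave 5.32 in both. The scaffold subunits PSMD1 and PSMD2, the ubiquitin receptor PSMD4 and the deubiquitinase PSMD14 had none. PSMD1 had the longest exons in sum among the members (15795 bp over all of its transcripts). Of genes of its exonic length, 53% had a peak in both. Its transcript with the longest CDS measured 3852 nt, of which 986 nt lay away from exon junctions. Of genes like PSMD1 in length away from exon junctions, 28% had a peak in both.

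The genes around the particle made up the rest. Of 4 activator genes, PSME4 had a peak in both replicates and PSME3 in replicate 1, whereas PSME1 and PSME2, whose products form the activator induced by interferon, had none. Of 4 assembly chaperone genes for the 20S core, PSMG2 and PSMG3 had a peak in both, PSMG4 in replicate 1 and PSMG1 in none. Genes of like exonic length gave 1.32 in both for the activators and 1.45 for these chaperones. PSMD5, PSMD9 and PSMD10 encode chaperones of the 19S base, and of these PSMD5 alone had a peak. Among the 19 genes of the 20S core, 0 had a peak in both, where genes of like exonic length gave 4.96. Among the 20 genes of the 19S group, PSMD5 and PSMD11 had one, where such genes gave 7.5, and PSMD5 is a chaperone. Outside these groups, the peaks of PSMF1 and PSMG2 are uncertain, as given below.

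Not all of these peaks can be given to the member with certainty, since the lists carry no strand. The summits of PSMF1 lay in an exon of 1 transcript annotated for nonsense-mediated decay and also in an exon of TMEM74B on the opposite strand. Those of PSMG2 lay only in exons of transcripts of that class, and in replicate 1 also in an exon of CEP76 on the opposite strand. The peak of PSMG4 lay in an exon of SLC22A23 on the opposite strand. Where only summits in exons of 1 gene were used, 4 members, PSMD5, PSMD11, PSME4 and PSMG3, had a peak in both replicates, against a background of 29.8% of all protein-coding genes.

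In 4 members, PSMG3, PSMD5, PSME4 and PSMD11, peaks present in both replicates could be given to 1 member alone. The sequences below are shown because each is the exonic core motif nearest to the middle of the 2 summits, within the stretch shared by both replicates. At exon 9 of PSMD5 only 39 exonic positions of the shared 139 bp were searched. For exon 10 of PSMD5 the nearest GGAC is added, which lies farther away. Each is 25 bases of hg38, read on the strand of the gene, and capitals mark the core motif.
PSMG3, 3′ UTR, chr7:1567652-1567676, minus strand: ctgctcagcaGGACacgtgaacacc
PSMD5, CDS in exon 10, chr9:120817985-120818009, minus strand: aaatctttggGAACccaaattattt
PSMD5, CDS in exon 10, chr9:120818081-120818105, minus strand: aatatgtggtGGACcggtctgtgga
PSMD5, CDS in exon 9, chr9:120820857-120820881, minus strand: gcccttccctGAACtacactgtgct
PSME4, 3′ UTR, chr2:53865046-53865070, minus strand: ggcaagtcctGAACctaaccaatga
PSMD11, 3′ UTR, chr17:32481201-32481225, plus strand: aactgtgtatAGACtgctgttttct

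PSMG3, a chaperone of 20S assembly, had 1 peak in each replicate, at chr7:1567401-1567784 in replicate 1 and chr7:1567468-1567719 in replicate 2. Its fold enrichment, the ratio of the pileup at the summit to the background of the peak caller, was 7.24 in replicate 1 and 4.49 in replicate 2. These values stood at percentiles 71.6 and 46.0 of all exonic peaks of the respective list. The summits lay in the last of 2 exons, in the 3′ UTR at 31 nt and 45 nt past the stop codon. They were 14 bp apart, and the GGAC printed above lay 5 nt and 9 nt from them. PSMG3 combined the shortest exonic length among the 4 members with a certain peak with the peak nearest to a stop codon, and 19% of genes of its exonic length had a peak in both.

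PSMD5, a chaperone of the 19S base, was the only member with summits in neighbouring exons. The peak in exon 10, its last exon, ran over chr9:120817770-120818174 in replicate 1 and chr9:120817853-120818144 in replicate 2, with fold enrichments of 5.57 and 3.05, at percentiles 54.7 and 19.1 of the exonic peaks. The peak with its summit in exon 9 ran over chr9:120820741-120820879 and chr9:120820739-120820894, with fold enrichments of 6.78 and 5.60, at percentiles 68.0 and 62.5. Only 41 bp of this peak in replicate 1 and 56 bp in replicate 2 were exonic, and the other 98 bp and 100 bp lay in the intron that follows. The exon 10 summits were in the CDS at −91 nt and −97 nt from the stop codon, and those of exon 9 at −261 nt and −257 nt.

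The summits of PSMD5 came close together once the intron was taken out. The intron between exons 9 and 10 is 2675 bp long, and the summits lay 2845 bp and 2835 bp apart in the genome but 170 nt and 160 nt apart on the spliced transcript. The exon 9 summits lay 5 nt and 1 nt from the end of that exon, which is 141 nt long, whereas the exon 10 summits lay 164 nt and 158 nt from the start of that exon. Since most of the peak at exon 9 lay in the intron, its place on the spliced transcript is that of its summit alone. The GAAC printed above for exon 10 lay 2 nt and 8 nt from the summits, and the GGAC of that exon lay 94 nt and 88 nt from them.

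PSMD11, a 19S lid subunit, and PSME4, an activator known for work in the nucleus and in spermatogenesis, had peaks farther into the 3′ UTR. PSMD11 had a fold enrichment of 4.99 at chr17:32481008-32481402 in replicate 1 and 3.06 at chr17:32481113-32481325 in replicate 2, at 525 nt and 489 nt past the stop codon in the last of 14 exons. PSME4 had 3.94 at chr2:53864944-53865290 and 3.84 at chr2:53864968-53865324, at 524 nt and 515 nt past the stop codon in the last of 47 exons. Neither stretch shared by both replicates held a GGAC, over 213 bp in PSMD11 and 323 bp in PSME4. The nearest of the 4 core motifs was an AGAC at 62 nt and 26 nt in PSMD11 and a GAAC at 2 nt and 7 nt in PSME4.

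PSMF1, an inhibitor of the 20S core, held the highest values among the members, with the uncertainty given above. Its peak at chr20:1180661-1181632 in replicate 1 and chr20:1180639-1181614 in replicate 2 had fold enrichments of 8.98 and 10.4, at percentiles 82.9 and 94.5 of the exonic peaks. It was the only peak of a member with a higher fold enrichment in replicate 2 among the pairs compared. In replicate 1 alone a second peak lay in the 3′ UTR of the transcript with the longest CDS, 225 nt past the stop codon, with a fold enrichment of 2.31. PSMG2 had low values, 2.38 in replicate 1 and 2.20 in replicate 2, and these summits lay 354 bp apart.

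The members with a peak in replicate 1 alone had fold enrichments of 2.19 to 4.2. PSME3, whose product is a nuclear activator, had a peak in the 5′ UTR at chr17:42833482-42833604 with a fold enrichment of 3.76, and its summit lay at −85 nt from the start codon in the first of 11 exons. PSMC3 had 3.97 at chr11:47426109-47426340, in an exon of 2 transcripts and outside the transcript with the longest CDS. PSMD13 had 2.19 at chr11:252700-252862, 146 nt past the stop codon. PSMG4 had 4.2 at chr6:3270457-3271040, in the exon shared with SLC22A23. All of them were absent from the list of replicate 2, which had fewer peaks in total.

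**Figure D2:**
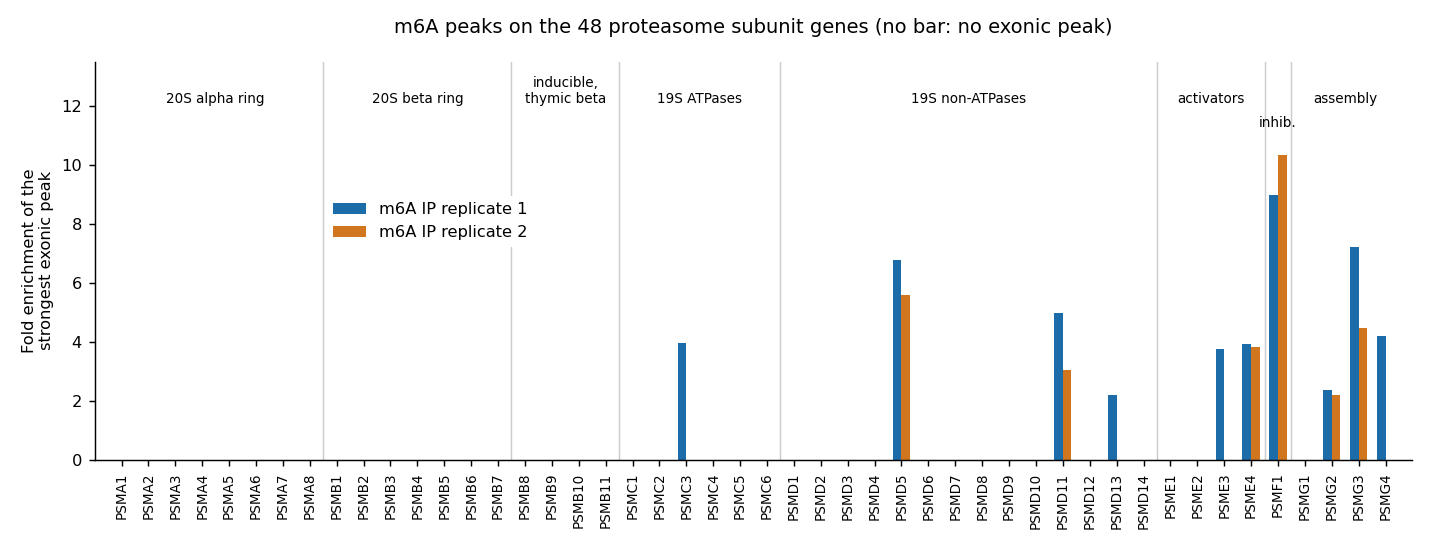
Fold enrichment (ratio, vertical axis) of the strongest exonic peak of each of the 48 proteasome subunit genes in replicate 1 (blue) and replicate 2 (orange), with the genes in order of their group and no bar where no exonic peak was listed. The bars run from 2.19 for PSMD13 to 8.98 for PSMF1 in replicate 1, and from 2.20 for PSMG2 to 10.4 for PSMF1 in replicate 2, and the 20S genes are empty.

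Peaks of members were shared between the replicates about as often as other exonic peaks. In replicate 1, 7 of 12 exonic peaks of members (58.3%) overlapped a peak of the other list, against 60.6% of all exonic peaks of protein-coding genes. In replicate 2, 7 of 7 did, against 95.9%. In 6 pairs, each peak was the best partner of the other, and their summits lay 4 to 74 bp apart. The fold enrichment was higher in replicate 1 in 5 of these 6 pairs, with a median log2 ratio of 0.48. Over all 10854 such exonic pairs, 80.6% were higher in replicate 1 with a median log2 ratio of 0.44, so the members shifted with the list as a whole.

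The median fold enrichment over all member peaks was below that of all exonic peaks in both lists. The median was 4.09 over 12 peaks in replicate 1, with quartiles of 3.41 and 5.87, where that of all exonic peaks was 5.21. In replicate 2 it was 3.84 over 7 peaks, with quartiles of 3.05 and 5.04, where all exonic peaks had 4.72. The quartile range of the members held the median of all peaks in each list. Over shared member peaks alone the median was 5.57 in replicate 1, above that of all exonic peaks, and 3.84 in replicate 2. The median of all shared exonic peaks is not given here.

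By region, most of the few member summits that could be placed lay near the stop codon or in the 3′ UTR. On the transcript with the longest CDS, 8 of the 12 summits of replicate 1 could be placed, and 3 (37.5%) lay within 200 nt of the stop codon, 3 (37.5%) farther into the 3′ UTR, 1 in the 5′ UTR and 1 in the CDS. In replicate 2, 5 of 7 could be placed, of which 2 (40.0%) lay in the stop codon window, 2 (40.0%) in the 3′ UTR and 1 in the CDS. Over all exonic peaks, 24.5% and 27.1% lay in the stop codon window, 18.1% and 19.7% in the 3′ UTR and 48.6% and 47.4% in the CDS. With so few summits, 1 peak moves the members' share by 12.5 points in replicate 1 and 20 points in replicate 2. No difference from all peaks was tested.

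**Figure D3:**
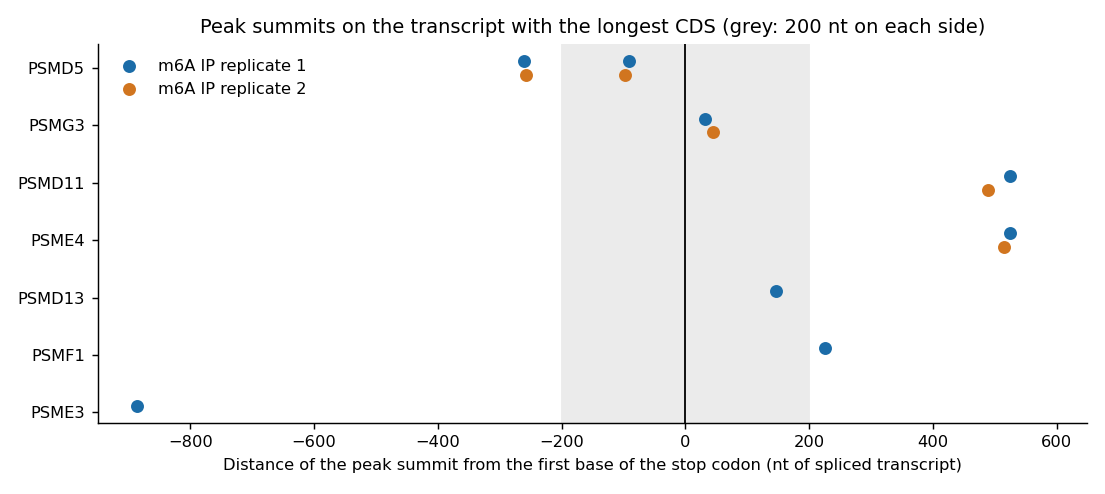
Distance of each exonic summit of a proteasome subunit gene from the stop codon on the transcript with the longest CDS (horizontal axis, nt from its first base, negative upstream), by gene, with replicate 1 in blue, replicate 2 in orange and the window of 200 nt on either side in grey. PSMG3 lies at 31 and 45 nt and PSMD5 at −91 and −97 nt in its last exon, while PSMD11 and PSME4 lie between 489 and 525 nt.

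GGAC was searched on the gene strand within 50 nt of each summit. It was found at 6 of 12 summits of members in replicate 1 (50%) and 3 of 7 in replicate 2 (42.9%), against 49.8% and 51.8% over all exonic summits. On the spliced transcript it was found at 2 of 8 and 1 of 5 placed summits, where all placed summits had 50.5% and 52.0%. Among placed summits, only those of PSMD5 exon 9 held a GGAC in the genome but not on the transcript, as they lie at the exon's end. Unplaced summits of PSMC3, PSMF1 and PSMG4 in replicate 1 and PSMG2 in replicate 2 also held one in the genome. These are not in the counts on the transcript. Any of the 4 core motifs was found in the genome within that distance at 8 of 12 and 7 of 7 summits, against 84.4% and 87.4%. A match is a description of these letters and not a methylated site.

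The transcripts of the members are short and finely cut into exons. Their median length was 1531 nt, on the transcript with the longest CDS, against 2803 nt for all protein-coding genes, while the median number of exons was 8.5 against 8. The last exon had a median of 484 nt against 1243 nt. The bases lying more than 100 nt from any exon junction numbered 440 nt in the median member and 1575 nt in the median gene, or 29.8% of the transcript against 62.0%. The density of GGAC was similar, at 3.45 per kb against 3.83, but the median number of GGAC in bases away from junctions was 1.5 against 5. PSMB3, at 7 nt, PSMC5, at 35 nt, and PSME2, at 38 nt, had the shortest length away from junctions among the members.

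**Figure D4:**
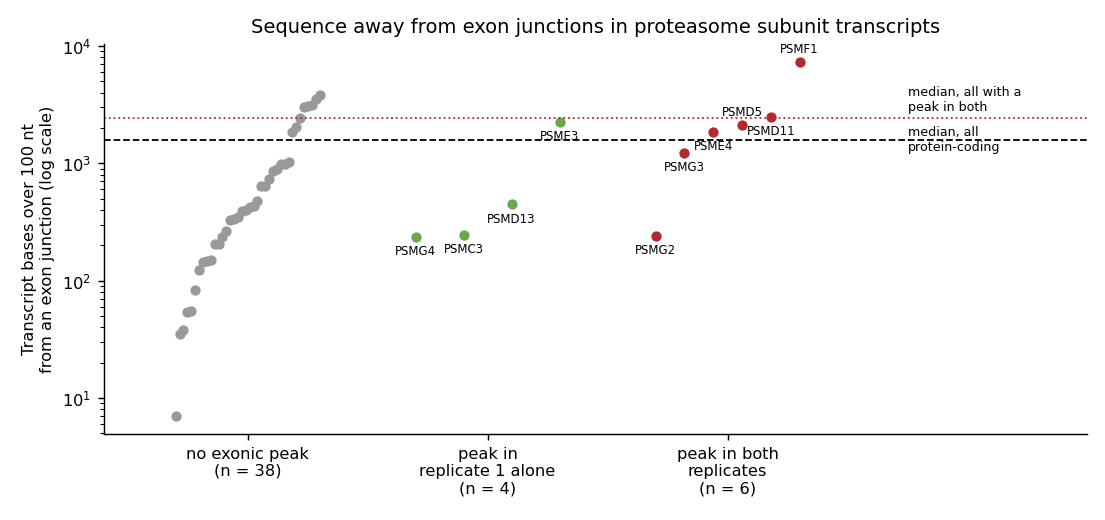
Bases of the transcript with the longest CDS that lie more than 100 nt from an exon junction (vertical axis, nt, log scale) for the 38 members without a peak, the 4 with a peak in replicate 1 alone and the 6 with a peak in both, with 1 point per gene. The dashed line is the median of all protein-coding genes, 1575 nt, and the dotted line that of all genes with a peak in both, 2416 nt.

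Members with a peak in both replicates had more sequence away from junctions than members without. The median was 1977 nt over the 6 and 410 nt over the 38, and the last exon measured 1808 nt and 451.5 nt. All protein-coding genes differed in the same direction, with 2416 nt for those with a peak in both and 1157.5 nt for those without. Of the 13 members at or above 1575 nt, 4 had a peak in both, where 45.9% of all genes in that range did. Of the 35 below it, 2 did, PSMG2 and PSMG3, where 20.9% of all genes did. PSMF1 is among the 4, and the peaks that count PSMF1 and PSMG2 in both replicates are uncertain. The summits of these peaks lay outside the transcript on which this length was measured.

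Taking likeness from this length in place of the exonic length brought the comparison closer. Genes like the members in transcript length gave 24.7% with a peak in both, or 11.9 of 48, and genes like them in length away from junctions gave 22.1%, or 10.6 of 48, where 6 members were counted. For the 20S genes the latter gave 3.37 of 19, where 0 were counted. For the 19S genes genes of like length away from junctions gave 4.92 of 20, where 2 were counted. The length away from junctions moves with the share of genes with a peak, and its part in the members' low count was not tested beyond this setting. Expression was not available in the lists and was not matched.

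Several members had long sequence away from junctions and yet no peak. PSMB2 had 3819 nt, PSMA4 3528 nt, PSMD12 3103 nt, PSMC1 3057 nt, PSMA5 2996 nt and PSMC2 2411 nt. Of genes like them in this measure, between 41.5% (PSMC1) and 52.5% (PSMA4) had a peak in both. PSMC1 held 25 GGAC in its transcript, 19 of them away from junctions, the highest number among members without a peak, and PSMC2 held 1 away from junctions. PSME4 was the reverse case, with 0 GGAC away from junctions and a peak in both replicates.

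Outside exons, the member with the most peaks was PSMB7, a proteolytic subunit of the beta ring. It had no exonic peak, but 4 peaks in replicate 1 and 3 in replicate 2 had their summit in its last introns, number 6 of 27682 bp and number 7 of 3054 bp. The widest ran over chr9:124354098-124356720 in replicate 1, with 2623 bp and a fold enrichment of 5.25, and over chr9:124354143-124356532 in replicate 2, with 2390 bp and 4.81. The peaks summed to 4009 bp and 3434 bp, and 3 of the 4 in replicate 1 and all 3 in replicate 2 overlapped a peak of the other list. No other gene of GENCODE overlaps these summits. GGAC was found within 50 nt of 0 of 4 and 0 of 3 summits on the strand of PSMB7, and of 1 and 2 on the other strand. The share over all intronic summits is not given here, so these motif counts have no background.

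**Figure D5:**
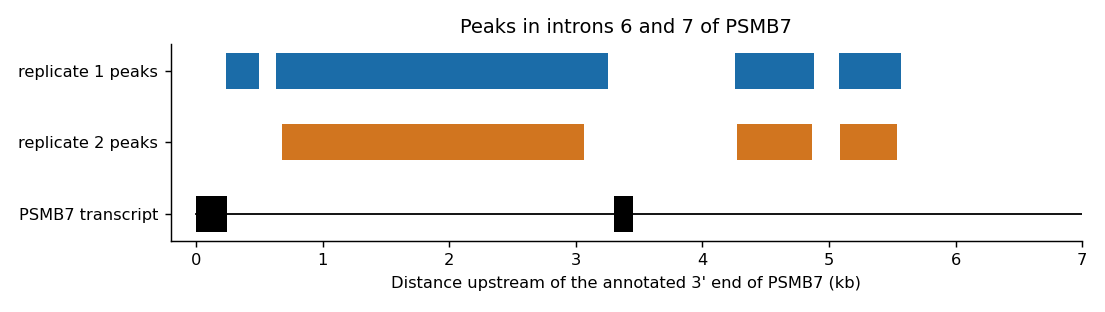
Map of the 3′ end of PSMB7 with its exons and the peaks of both replicates (horizontal axis, kb upstream of the annotated 3′ end, with exons in black). The peaks of replicate 2 overlap those of replicate 1 in the last introns, and the widest measures 2623 bp and 2390 bp.

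Genes that work with the proteasome but carry other symbols were taken from a list of 20. Of these, 11 (55%) had an exonic peak in replicate 1, where genes of like exonic length gave 49.0%, or 9.8 genes. In both replicates 7 (35.0%) had one, where such genes gave 39.6%, or 7.92 genes. For the strongest peak of each gene, DDI2, the protease that activates NFE2L1, had fold enrichments of 9.63 and 7.31, although some of its summits also lie in RSC1A1, and AKIRIN2, which brings proteasomes into the nucleus, had 9.24 and 8.72. The strongest summits of AKIRIN2 could not be placed on its transcript with the longest CDS in either replicate. NFE2L1, the transcription factor that raises proteasome genes when proteolysis is blocked, had 7.83 in its 5′ UTR in replicate 1 and 5.19 in the stop codon window in replicate 2, which are different peaks, and some of its summits also lie in an unnamed long non-coding RNA gene. The shuttle factor UBQLN2 had 7.77 and 4.75. The shuttle factor RAD23B had 5.64 in the stop codon window in replicate 1 and 3.41 in the 3′ UTR in replicate 2, again at different places. The 19S assembly chaperone PAAF1 had 6.78 and 4.83, and ZFAND5, a proteasome activator, had 3.62 and 2.80.

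The subunits and the maturation factor on that list had few peaks. ADRM1 and UCHL5 of the 19S particle and POMP, the maturation factor of the core, had no peak, and SEM1 had one in replicate 1 alone, at 2.89. No peak was listed for USP14, ECPAS, TXNL1, UBQLN1 or NGLY1 either. PITHD1, UBQLN4 and UBE3C had one in replicate 1 alone.

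Other large complexes were set side by side, without a test. Of 8 genes of the chaperonin CCT, 0 had a peak in both replicates where genes of like exonic length gave 2.59. Of 10 COP9 signalosome genes, which share an ancestry with the 19S lid, 2 did where such genes gave 3.31. Of 13 EIF3 genes, 3 did against 5.38, and of 86 genes of cytosolic ribosomal proteins, 4 did against 24.2. The counts were thus under those of genes of like exonic length in these complexes as well. Against genes of like length away from junctions, COP9 genes counted 2 against 2.07 and EIF3 genes 3 against 3.25, CCT genes 0 against 1.37 and ribosomal protein genes 4 against 15.2.

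Pseudogenes and non-coding neighbours share sequence or place with the members. Of 44 pseudogenes named after them, 1 had a peak, PSMD10P2, with fold enrichments of 8.74 and 9.33. Of 7 long non-coding RNAs named after them, 2 had a peak in both replicates. PSMG3-AS1 had 5 and 3 peaks, the strongest at 10.5 and 15.9, and PSMA3-AS1 had 3 and 1, the strongest at 4.81 and 3.53. The shares over all pseudogenes and all long non-coding RNAs are not given here, so these counts have no background. Reads from a gene and a near-identical copy could be split by the mapping, so a missing peak on a member with such copies is uncertain.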

How the data were processed

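Peak lists of the 2 m6A IP samples were used, and the 2 input samples entered nothing. Per the labels, cells were UV-fixed and lysed, whereas the study's methods describe purified, fragmented RNA. The submitters' processing notes name fastp, HISAT2, MACS2 and hg38, the study's methods name TopHat2 in place of HISAT2, and versions are not given in the sources used here. The sources do not say whether MACS2 used the input as its control. The authors called peaks per sample and deposited for each a fold enrichment (a ratio, at the summit), the p-value and q-value as −log10, a score (not used) and the offset of the summit from the start. The highest q was 0.0491 and 0.0497, so the lists end at 0.05.

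Summits were assigned to exons of GENCODE version 44 on hg38, and a summit in exons of several protein-coding genes counted for each. Genes of like length were the 200 protein-coding non-members nearest in exonic length. Regions used the transcript with the longest CDS and a stop codon window of 200 nt both ways, motifs a window of 50 nt, and sharing an overlap of 1 bp. The percentages of genes with a peak are descriptions, and no test was run, since the lists form 1 group of 2. The members and gene lists were chosen with earlier results of these data known. Every member with an exonic peak is named, and the others by group. Of the other proteasome genes, 1 is not reported here by name. The other complexes, the relatives and the intronic summits were chosen after values were seen. Alternatives were other thresholds, windows, overlaps and exon sets, and each replicate left out. The scripts were tested on simulated data. Python 3.11.15, numpy 2.4.6, pandas 2.3.3, pysam 0.24.0 and matplotlib 3.10.9 were used. Coordinates are 1-based.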

Additional observations from a re-analysis of the deposited data

Results flagged for a closer look

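Summits in introns lie outside the exonic peaks that the comparisons use, and no peak list of the input was at hand as a control. In replicate 1, 9 summits lay in introns of 5 members and outside exons of any gene, and 3 of these peaks overlapped a peak of the other replicate. In replicate 2, 4 summits lay in introns of 2 members, and all 4 overlapped a peak of replicate 1. PSMB7 held 4 and 3 of them, and PSMG2 1 in each replicate, at different places. That of PSMG2 in replicate 1 overlapped no peak of replicate 2. That of replicate 2 overlapped the peak of PSMG2 in replicate 1 whose summit was exonic. The others were seen in replicate 1 alone, in PSMA1, PSMC4 and PSMF1. The lists carry no strand, and the source of these peaks was not tested. The shares over all protein-coding genes and over all intronic peaks are not given here, so these counts have no background.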

How the results depend on the processing

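Of 52 values under another setting, 32 stayed within the bounds set for a value and 20 moved. The number of members with a peak in both replicates was 2 at a fold enrichment of 5 or more (PSMD5 and PSMF1) and 6 to 10 with 1 replicate left out, where 10 is the count of replicate 1 alone. Genes of like length had a peak in both at 18.6% at a fold enrichment of 5 or more, 24.7% with the transcript length, 22.1% with the length away from junctions (a setting added after the data were seen), and 33.4% to 42.2% with 1 replicate left out. The share in the stop codon window in replicate 1 was 25% at 100 nt, 62.5% at 400 nt, 33.3% at q of 1e-05 and 66.7% at a fold enrichment of 5, and in replicate 2 60% at 400 nt and 0% at a fold enrichment of 5. The median fold enrichment was 5.57 for shared peaks and 4.60 at q of 1e-05 in replicate 1, and 4.16 in replicate 2 for the strongest peak of each member and at q of 1e-05. GGAC was found at 25% and 14.3% of summits within 25 nt and at 66.7% and 71.4% within 100 nt. In each setting that gave both, the members' count stayed under that of genes of like length.

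No paired analysis was possible because the input samples have no peak list analysed here, so the replicate numbers join no samples of different groups. The number of member peaks, 12 and 7, limits every share of peaks, the read depth is unknown, and differences in expression between genes were not matched.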
